A study of Homo sapiens with 12 samples.

Results

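The alpha-arrestins are a family of cytoplasmic adaptor proteins, and their human members are encoded by the ARRDC genes and TXNIP. The set described here was made of 5 listed genes, ARRDC1, ARRDC2, ARRDC3, ARRDC4 and TXNIP, matched by symbol to the annotation column of a table of read counts with 13853 genes. Of these, 4 had a matching row, and all 4 passed the filter on low counts that left 13846 genes. TXNIP was not analysed here. The set was chosen with the comparison of knockdown and control cells in view, so the values of the ARRDC genes in that comparison are a description and no p-value is attached to them.

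The libraries came from H1299, an established line of human non-small cell lung cancer cells. One group carried a control vector (shNT, 3 libraries) and the other a short hairpin vector that depletes GAS41, the product of YEATS4 (shGAS41, 3 libraries). Per the labels' protocols the cells were infected with viral supernatant and kept under drug selection before use, which held for the controls too. GAS41 is a chromatin protein that reads acetylated histone H3 and belongs to the complexes that deposit the histone variant H2A.Z. The labels name 1 knockdown group and do not give the hairpin sequence, so an effect of the hairpin beyond GAS41 cannot be told apart from depletion. Whether replicate libraries stem from separate cultures is not stated, so the p-values below measure the spread between libraries and may reflect technical variation. Chromatin immunoprecipitation samples of the series were not analysed here.

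Alpha-arrestins share an arrestin fold with the beta-arrestins. Most of them carry proline- and tyrosine-containing motifs near the end of the protein that bind ubiquitin ligases of the NEDD4 family, and through these they direct the ubiquitination and sorting of membrane proteins. ARRDC1 is known for budding of small vesicles from the plasma membrane. ARRDC3 is known for controlling beta-adrenergic receptors and integrin beta-4. ARRDC4 and TXNIP limit glucose uptake and are induced by glucose through MondoA and its partner MLX. TXNIP also binds thioredoxin. The role of ARRDC2 is less well defined.

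Total counts per library lay between 58629147 and 72747010, and no pair of replicate libraries agreed within sampling noise (chi-square of 4.24 to 28.4 per degree of freedom). The targeted transcript YEATS4 had 3245, 2923 and 2820 counts in the shNT libraries and 108, 127 and 116 in the shGAS41 libraries. Among markers of cell identity, the keratin genes KRT8 and KRT18 and the mesenchymal gene VIM were abundant (294 ± 1.79, 571 ± 8.32 and 2641 ± 56.4 CPM in shNT cells, mean ± SD, n = 3). Markers of blood, vessel and alveolar cells were not analysed here. CPM is the read count of a gene relative to its library total after TMM scaling (trimmed mean of M-values).

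The sequences around the RefSeq start sites of ARRDC3 and ARRDC4, the genes with the largest differences below, are shown as a description. These genes were picked after their values and motif matches were seen. Whether any motif bears on the differences was not tested. Each sequence runs from 250 bases before the start to 50 bases after it, in build GRCh38.p14. Capitals mark the motifs described after the sequences.
ARRDC3 start 1 (chr5:91383268-91383567, minus strand): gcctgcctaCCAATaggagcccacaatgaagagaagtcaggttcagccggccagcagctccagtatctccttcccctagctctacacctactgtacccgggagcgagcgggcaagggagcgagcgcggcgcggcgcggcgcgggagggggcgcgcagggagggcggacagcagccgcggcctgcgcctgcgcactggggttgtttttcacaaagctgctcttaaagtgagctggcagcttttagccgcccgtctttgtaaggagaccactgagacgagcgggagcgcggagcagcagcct
ARRDC3 start 2 (chr5:91380048-91380347, minus strand): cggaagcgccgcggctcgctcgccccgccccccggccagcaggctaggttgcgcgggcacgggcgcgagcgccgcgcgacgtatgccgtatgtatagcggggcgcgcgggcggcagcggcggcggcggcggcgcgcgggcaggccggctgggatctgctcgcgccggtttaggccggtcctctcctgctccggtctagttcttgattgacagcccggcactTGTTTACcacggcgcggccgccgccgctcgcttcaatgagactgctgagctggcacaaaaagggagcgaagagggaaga
ARRDC4 (chr15:97960453-97960752, plus strand): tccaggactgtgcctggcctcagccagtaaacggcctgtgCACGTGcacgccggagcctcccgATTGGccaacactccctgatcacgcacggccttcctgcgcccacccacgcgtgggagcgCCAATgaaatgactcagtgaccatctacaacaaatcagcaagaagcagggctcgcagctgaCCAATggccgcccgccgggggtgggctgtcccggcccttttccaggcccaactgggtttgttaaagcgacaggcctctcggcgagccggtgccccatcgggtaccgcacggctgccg

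The RefSeq table gave 6 start sites for the 4 genes, 2 each for ARRDC2 and ARRDC3 and 1 each for ARRDC1 and ARRDC4. Counts per gene do not show which start site is used in H1299 cells. All 6 windows were searched on both strands for 5 motifs, and the share of all 35116 windows of the same length that hold a match is given beside each. The forkhead core GTAAACA, bound by FOXO factors, had 1 match, on the opposite strand of the second ARRDC3 window, where it begins 29 bases before the start (3.42% of all windows hold it). The E-box CACGTG, bound by MYC, MAX and MondoA family factors, had 1 match, 210 bases before the ARRDC4 start (7.26% of all windows). A form of the carbohydrate response element, CACGNG and CNCGNG with 5 bases between them, was not in any of the 6 windows (0.501% of all windows). The CCAAT box occurred 3 times in the ARRDC4 window, at 187, 128 and 67 bases before the start, and once each in the windows of ARRDC1, of the second ARRDC2 start and of the first ARRDC3 start (34.6% of all windows hold at least 1). TATAAA was found in the second ARRDC2 window only among the 6, 30 bases before the start (11.5% of all windows). The windows were rich in G and C, from 65.0% in ARRDC4 and the first ARRDC3 window to 81.3% in ARRDC1, against a median of 58.7% over all windows. No motif of the 5 was present in all 6 windows, and a match is a description of the letters and not of binding.

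All 4 measured alpha-arrestin genes were higher in shGAS41 cells, ARRDC3 by the largest factor. In each of them every shGAS41 library lay above every shNT library. The median log2 fold change of the 4 was 1.23, against -0.0051 over all 13846 genes tested. At a Benjamini-Hochberg adjusted p under 0.05 in the quasi-likelihood test of edgeR, 33.6% of all genes were called higher and 34.5% lower, and for 35.6% of all genes the shGAS41 values lay entirely above the shNT values. The 4 genes were among those called higher, and since the set was chosen on this comparison nothing is read from that count. In bulk libraries, more RNA per cell and a larger share of cells with a high level cannot be told apart.

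ARRDC3 (ENSG00000113369), the regulator of beta-adrenergic receptors and integrin beta-4, had 3281, 2829 and 2557 counts in the shNT libraries and 12068, 14198 and 10961 in the shGAS41 libraries. As CPM these were 44.6, 45.6 and 43.2 in shNT cells and 185, 198 and 190 in shGAS41 cells. The lowest shGAS41 library was 4.07 times the highest shNT library, and the libraries within a group lay close together, with a coefficient of variation of 2.79% in shNT and 3.27% in shGAS41 cells. The means were 44.5 ± 1.24 and 191 ± 6.24 CPM (SD, n = 3 each), a 4.30-fold difference with a log2 fold change of 2.10 ± 0.05 (SE). ARRDC3 thereby ranked 112th from the highest log2 fold change of all genes tested. Between libraries of the same replicate number the log2 difference was 2.05, 2.12 and 2.14.

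ARRDC4 (ENSG00000140450), whose product takes part in the control of glucose uptake, was the member with the fewest reads. It had 103, 94 and 127 counts in the shNT libraries and 385, 290 and 242 in the shGAS41 libraries. In CPM the shNT libraries stood at 1.40, 1.52 and 2.14 and the shGAS41 libraries at 5.92, 4.04 and 4.19. The groups did not overlap, but shGAS41 replicate 1 was above the other 2 of its group and shNT replicate 3 above the other 2 of its own. The means were 1.69 ± 0.400 and 4.72 ± 1.04 CPM (SD, n = 3 each), a log2 fold change of 1.49 ± 0.20 (SE). The log2 difference between libraries of the same replicate number was 2.06, 1.40 and 0.96, the widest spread of the 4 genes. Without shGAS41 replicate 1 the log2 fold change was 1.29, and without shNT replicate 3 it was 1.70.

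ARRDC1 (ENSG00000197070), the vesicle-budding member, had 1636, 1374 and 1230 counts in the shNT libraries and 2576, 3005 and 2683 in the shGAS41 libraries. These were 22.2, 22.2 and 20.8 CPM in shNT cells and 39.6, 41.9 and 46.5 CPM in shGAS41 cells. The lowest shGAS41 library was 1.78 times the highest shNT library. The means were 21.7 ± 0.833 and 42.6 ± 3.51 CPM (SD, n = 3 each), a log2 fold change of 0.97 ± 0.07 (SE).

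ARRDC2 (ENSG00000105643) showed the smallest difference of the 4. Its counts were 1429, 1304 and 1078 in the shNT libraries and 1986, 2394 and 1951 in the shGAS41 libraries. The shNT libraries stood at 19.4, 21.0 and 18.2 CPM and the shGAS41 libraries at 30.5, 33.3 and 33.8 CPM, so the groups were apart here as well. The means were 19.6 ± 1.42 and 32.6 ± 1.77 CPM (SD, n = 3 each), a log2 fold change of 0.74 ± 0.07 (SE). Levels are not compared between the 4 genes, because no transcript lengths were at hand to scale the counts.

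**Figure D1:**
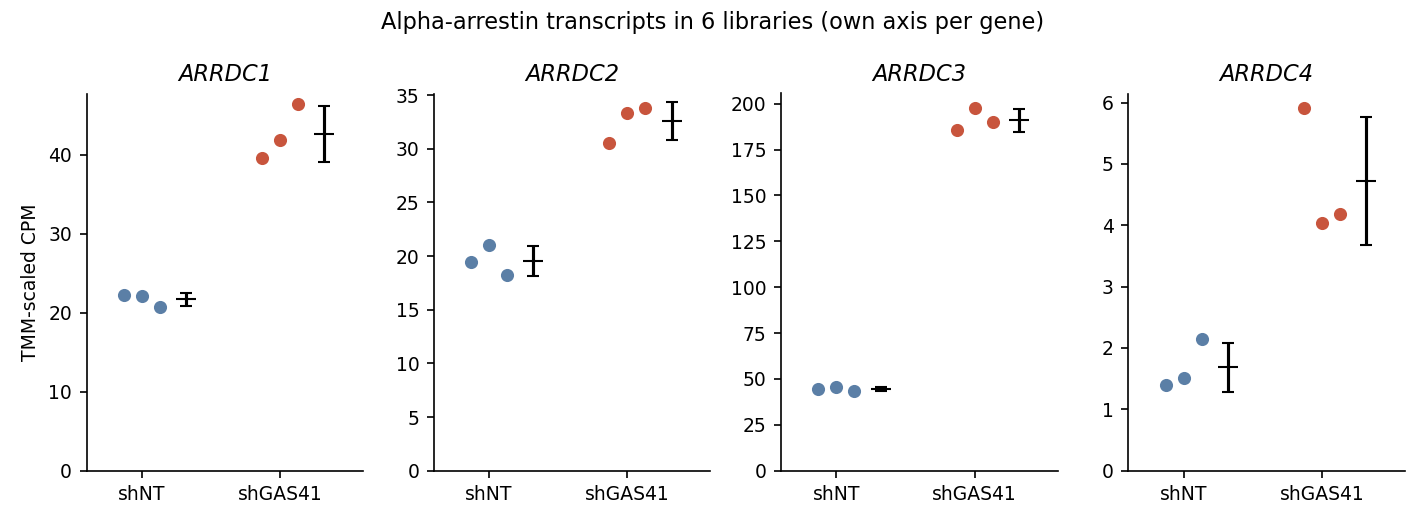
TMM-scaled CPM of ARRDC1, ARRDC2, ARRDC3 and ARRDC4 in each of the 3 shNT (blue) and 3 shGAS41 (red) libraries, replicates 1 to 3 from left to right, with the group mean and SD in black and an axis from 0 for each gene. In every panel the shGAS41 points lie above the shNT points, by the largest factor for ARRDC3 (44.5 against 191 CPM on average) and with the widest relative spread for ARRDC4.

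The authors' deposited table, which holds a comparison of the same libraries, also listed all 4 genes as higher at an adjusted p under 0.05, as it did 18.6% of its genes. The log2 values of the authors' deposited table were 1.64 for ARRDC3, 1.81 for ARRDC4, 1.06 for ARRDC1 and 0.80 for ARRDC2. ARRDC4 thus headed the 4 there, while ARRDC3 headed them in the fit to the counts.

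**Figure D2:**
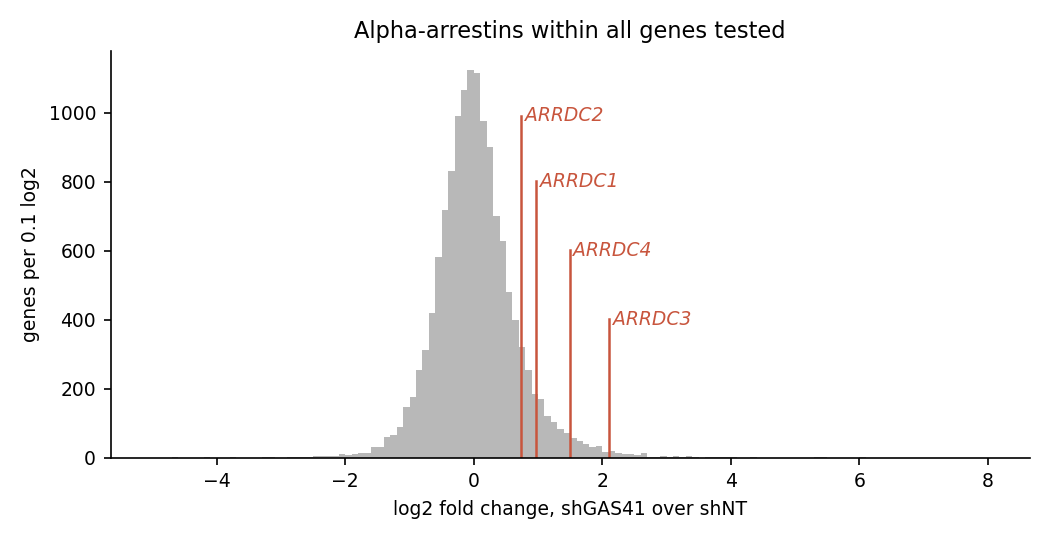
Histogram of the log2 fold change of shGAS41 over shNT for all 13846 genes tested, in bins of 0.1, with red lines at the values of the 4 alpha-arrestin genes (line height carries no value). ARRDC2 (0.74) and ARRDC1 (0.97) lie on the upper shoulder of the distribution, and ARRDC4 (1.49) and ARRDC3 (2.10) in its upper tail.

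The genes whose pattern was most like that of ARRDC3 were found by the root-mean-square distance between log2 CPM profiles over the 6 libraries, each profile centred on its own shNT mean, among 9147 candidate genes with a mean log2 CPM of at least 3. The 5 nearest were PLXNA1 (distance 0.054), CREBRF (0.092), NR6A1 (0.095), ITGA5 (0.098) and C1QTNF6 (0.105), against a median distance of 1.52 over the candidates. PLXNA1 encodes a semaphorin receptor, CREBRF a regulator of the factor CREB3, NR6A1 an orphan nuclear receptor and ITGA5 the alpha subunit of the fibronectin receptor. PLXNA1 stood at 196, 196 and 190 CPM in the shNT libraries and at 831, 924 and 874 CPM in the shGAS41 libraries. With each gene scaled to unit SD over the libraries, PLXNA1 alone of the 5 remained among the nearest 5. The distance rests mainly on the step between the groups, which all of these genes share by construction of the measure.

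Relatives, partners, cargo and upstream factors of the alpha-arrestins, and genes of linked pathways, were taken from 10 lists with 107 entries. In all, 94 entries were tested. Of these, 43 (45.7%) rose and 15 (16.0%) fell, against 33.6% and 34.5% of all genes, and 61.7% were called in either direction, against 68.1% of all genes. The counts of each list below are to be read against the same shares. The median log2 fold change over the entries was 0.18. The lists describe these genes and were chosen with earlier results of these data known.

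Ubiquitin ligases of the NEDD4 family, the enzymes that alpha-arrestins recruit, rose or did not pass the test. Of 10 tested ligases and adaptors 6 rose and none fell, and the median log2 fold change was 0.45 (-0.0051 over all genes). NEDD4 stood at 124, 126 and 130 CPM in the shNT libraries and at 198, 203 and 200 CPM in the shGAS41 libraries, a log2 difference of 0.66 ± 0.04 (SE, edgeR adjusted p = 3.78e-07). SMURF2 stood at 199, 208 and 216 CPM in shNT and at 320, 355 and 356 CPM in shGAS41 cells, a log2 fold change of 0.73 ± 0.05 (adjusted p = 1.13e-06, edgeR). ITCH, a ligase of the same family, showed a log2 fold change of -0.046, which missed the threshold (edgeR adjusted p = 0.389).

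Among the arrestin-fold relatives, 3 of 6 tested genes rose and 2 fell (median log2 fold change 0.12). The beta-arrestin gene ARRB1 rose by 0.63 ± 0.12 from a low level of 4.26 ± 0.496 CPM (SD, n = 3), and DSCR3, which encodes an endosomal retriever subunit, rose by 0.30 ± 0.05 (SE). The other beta-arrestin gene, ARRB2, fell by 0.17 on the log2 scale (adjusted p = 0.0104 in edgeR), a call that was lost without shGAS41 replicate 2 (adjusted p = 0.0544), which left 1 call in place of 2. RGP1, a trafficking factor, fell by 0.31. Of 14 ESCRT and vesicle-budding genes, which act with ARRDC1, 5 rose and 2 fell, with a median of 0.056. VPS4B, an ATPase that disassembles ESCRT filaments, rose by 0.49 ± 0.05 (SE) and VPS28 by 0.25, while STAM fell by 0.32 and CHMP2A by 0.23.

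Receptors and transporters that have been described as cargo of alpha-arrestins rose in 5 of 7 cases and fell in 1, with a median log2 fold change of 0.38. The metal transporter gene SLC11A2 rose by 0.40 ± 0.05 (SE) and the receptor gene NOTCH1 by 0.57 ± 0.09. The thrombin receptor gene F2R fell by 0.21 (adjusted p = 0.0118 in edgeR), a call lost without shNT replicate 2 (adjusted p = 0.0637), when no gene of the list was lower. The largest rise of the list was that of ITGB4, the integrin beta-4 gene, which is named after its value was seen. ITGB4 stood at 8.16, 5.35 and 4.73 CPM in the shNT libraries and at 20.7, 12.7 and 12.8 CPM in the shGAS41 libraries. Replicate 1 was the highest of its group on both sides, and the log2 fold change was 1.33 ± 0.26 (SE, edgeR adjusted p = 0.00262).

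Glucose transporter genes went up or did not pass the test. Of 7 tested, 4 rose and none fell (median log2 fold change 0.26). SLC2A3, which encodes the high-affinity transporter GLUT3, stood at 53.0, 51.3 and 52.7 CPM in the shNT libraries and at 192, 172 and 171 CPM in the shGAS41 libraries. Its log2 fold change was 1.77 ± 0.05 (SE, edgeR adjusted p = 8.20e-09), and reads may be shared with its near-identical copy SLC2A14. The myo-inositol transporter gene SLC2A13 rose by 0.48. SLC2A1, which encodes GLUT1, a transporter whose endocytosis TXNIP and ARRDC4 promote, had 73.6, 90.0 and 92.8 CPM in shNT and 79.2, 93.0 and 95.1 CPM in shGAS41 cells. These values overlap, and the log2 fold change of 0.060 ± 0.096 (SE) did not pass the test (adjusted p = 0.595, edgeR). SLC2A11 had a log2 fold change of -0.25 (edgeR adjusted p = 0.0554). It passed as lower with the replicate block (adjusted p = 0.0182) and with scaling by library size alone (0.0444), either of which makes 1 falling gene in this list.

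Of the glucose-sensing factors upstream of ARRDC4 and TXNIP, MLX fell, and MLXIP and MLXIPL did not pass the test. MLXIP, which encodes MondoA, had a log2 fold change of 0.0096 (edgeR adjusted p = 0.870), whose sign turned with scaling by library size alone (-0.012) and without shGAS41 replicate 2 (-0.033). MLX, its dimer partner, stood at 40.9, 40.5 and 38.4 CPM in shNT and at 33.6, 30.0 and 31.0 CPM in shGAS41 cells, a log2 difference of -0.34 ± 0.06 (SE, edgeR adjusted p = 0.000590). MLXIPL, which encodes ChREBP, had only 67, 14 and 31 counts in the shNT libraries and 108, 70 and 48 in the shGAS41 libraries. Its log2 fold change of 1.03 ± 0.43 (SE) did not pass edgeR's test (adjusted p = 0.0545), but it passed with the replicate block (0.000374), with DESeq2 (0.0268), without shNT replicate 1 (0.00540) and without shGAS41 replicate 3 (0.0438). The log2 fold change itself was 1.64 without shNT replicate 1 and 0.68 without shNT replicate 2 or without shGAS41 replicate 1. Over all 11 tested genes of the MondoA, ChREBP and MAX network 5 rose and 2 fell, with a median of 0.34. The MAX-binding repressor genes MXD4 (1.30 ± 0.05, SE) and MXI1 (0.74 ± 0.06) rose and MXD3 fell by 0.59. MXD4 stood at 41.9, 44.2 and 41.3 CPM in shNT and at 110, 100.4 and 104 CPM in shGAS41 cells.

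Other known targets of MondoA and ChREBP were split, with 3 of 8 higher and 2 lower and a median log2 fold change of -0.013. The transketolase gene TKT rose by 0.30 and the zinc finger gene KLF10 by 0.32. HK2, which encodes a hexokinase, stood at 86.1, 93.6 and 94.6 CPM in shNT and at 54.7, 66.7 and 65.9 CPM in shGAS41 cells, a log2 difference of -0.55 ± 0.08 (SE, edgeR adjusted p = 0.000103). ACLY, a lipid synthesis gene, fell by 0.19. The lipid synthesis gene FASN had a log2 fold change of -0.30 and passed only with the replicate block among the alternatives (adjusted p = 7.88e-08, against 0.360 in the fit without it).

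Thioredoxin system genes, the pathway of the TXNIP protein, moved in both directions. Of 17 tested, 3 rose and 5 fell around a median log2 fold change of 0.041, and 5 rose without shGAS41 replicate 1. TXN, which encodes thioredoxin, stood at 240, 230 and 232 CPM in the shNT libraries and at 314, 349 and 364 CPM in the shGAS41 libraries, a log2 difference of 0.55 ± 0.06 (SE, edgeR adjusted p = 1.09e-05). PRDX3 rose by 0.20, and the glutaredoxin genes GLRX5 and GLRX3 fell by 0.25 and 0.24. TXNRD1, the cytosolic thioredoxin reductase gene, was 0.19 higher on the log2 scale, short of the threshold (edgeR adjusted p = 0.125), but passed with the replicate block (0.000428) and without shGAS41 replicate 1 (0.000732).

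Of 6 genes whose products have been described as TXNIP partners outside that system, 4 rose and 1 fell, with a median of 0.44. DDIT4, which encodes an inhibitor of the mTOR pathway, stood at 12.1, 13.6 and 11.2 CPM in shNT and at 29.8, 38.8 and 39.0 CPM in shGAS41 cells, a log2 difference of 1.54 ± 0.11 (SE, edgeR adjusted p = 1.45e-06). The stress kinase gene MAP3K5 rose by 0.66 and COPS5, a signalosome subunit gene, fell by 0.23.

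FOXO factors and glucocorticoid-responsive genes were listed because both kinds of signal are known to act on alpha-arrestin genes. Of 8 tested, 5 rose and none fell (median log2 fold change 0.55). The kinase gene SGK1 stood at 85.5, 81.4 and 92.0 CPM in shNT and at 144, 135 and 138 CPM in shGAS41 cells, a log2 difference of 0.69 ± 0.06 (SE, edgeR adjusted p = 1.99e-06). The clock gene PER1 rose by 0.75 ± 0.07. For FKBP5, also in the list, the log2 fold change of -0.094 did not pass the test (edgeR adjusted p = 0.113). Its shGAS41 values all lay below its shNT values. Of the FOXO factor genes, FOXO4, named after its value was seen, rose by 0.74 ± 0.11 (SE, edgeR adjusted p = 0.000173), while FOXO3 (0.065) and FOXO1 (0.028, and -0.053 without shGAS41 replicate 2) did not pass the test (edgeR adjusted p = 0.366 and 0.865).

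**Figure D3:**
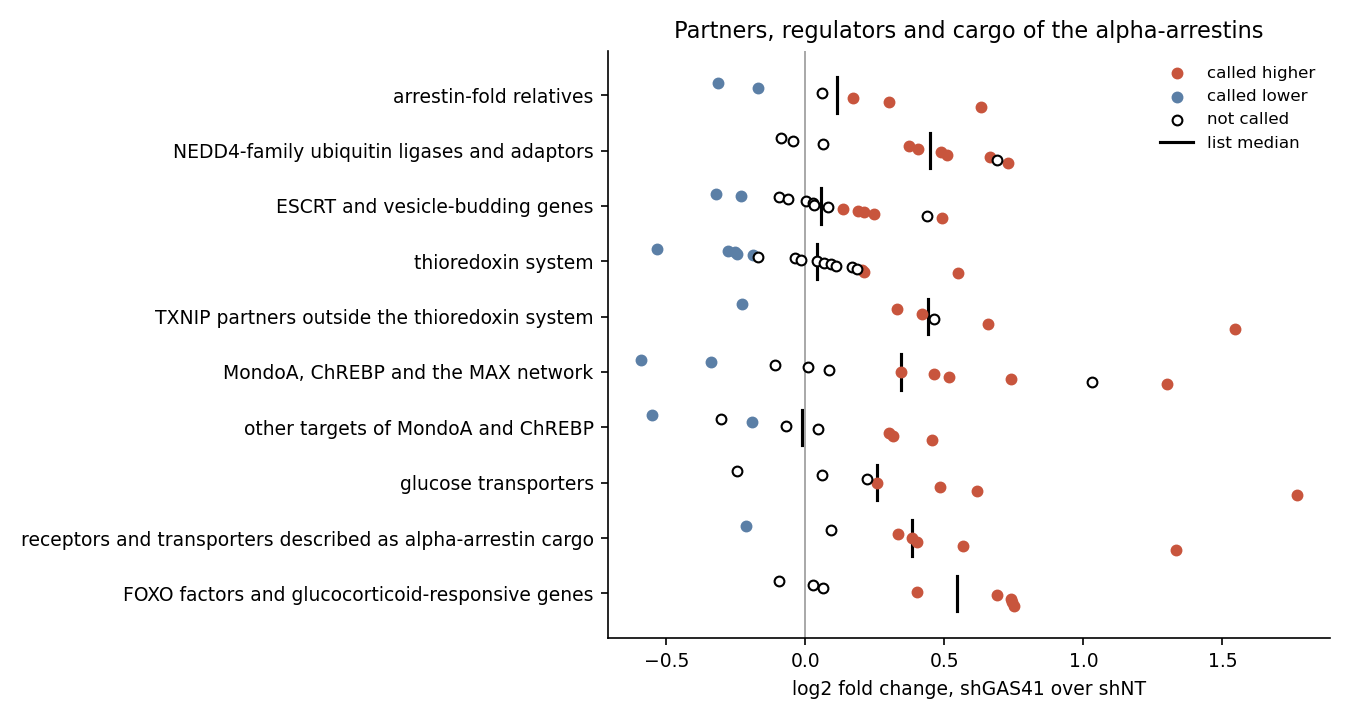
Log2 fold change of shGAS41 over shNT for each tested gene of the 10 lists, in red where called higher, blue where called lower and open where not called at an adjusted p of 0.05, with the list median as a black bar. The NEDD4-family, TXNIP partner, cargo and FOXO and glucocorticoid lists sit mostly to the right of 0 (medians 0.45, 0.44, 0.38 and 0.55). The MondoA, ChREBP and MAX network and the glucose transporters have medians of 0.34 and 0.26, and the arrestin-fold relatives 0.12. The thioredoxin and ESCRT lists and the other targets of MondoA and ChREBP centre near 0 (0.041, 0.056 and -0.013).

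The 4 alpha-arrestin genes lie on 4 chromosomes (ARRDC1 on 9, ARRDC2 on 19, ARRDC3 on 5 and ARRDC4 on 15), so none neighbours another. Their nearest tested protein-coding neighbours in GRCh38 RefSeq, a choice made after the members' values were seen, did not share a direction. Of 8 neighbours 3 rose and 3 fell, against 33.6% and 34.5% of all genes, and nothing is read from these counts. On the sides of LYSMD3 and MAST3, 1 nearer protein-coding gene each was passed over for want of a tested row. On the sides of ARRDC3, LYSMD3 fell by 0.94 ± 0.09 (SE, edgeR adjusted p = 6.63e-06) from 28.1, 29.9 and 33.7 to 14.3, 16.1 and 17.1 CPM. NR2F1, on its other side, had a log2 fold change of -0.31, short of the threshold (edgeR adjusted p = 0.118), but passed as lower with the replicate block (0.000263) and without shGAS41 replicate 1 (0.000500). Beside ARRDC2, MAST3 rose by 0.48, and KCNN1 rose from 0.653, 0.468 and 0.354 to 2.17, 1.32 and 1.32 CPM, a log2 fold change of 1.68 ± 0.29 (SE). Beside ARRDC4, NR2F2 fell by 0.18, and IGF1R rose by 0.20 (adjusted p = 0.0315 in edgeR), a call lost without shNT replicate 1 (0.0652) or 2 (0.0810) and without shGAS41 replicate 2 (0.155) or 3 (0.0584). Beside ARRDC1, ZMYND19 fell by 0.60 and EHMT1 had a log2 fold change of -0.038 (edgeR adjusted p = 0.620).

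The antisense gene at the end of ARRDC1, listed as C9orf37 (ARRDC1-AS1), moved opposite to ARRDC1. It is named after its value was seen. C9orf37 stood at 16.7, 17.4 and 15.7 CPM in the shNT libraries and at 8.16, 9.14 and 8.85 CPM in the shGAS41 libraries, a log2 difference of -0.93 ± 0.08 (SE, edgeR adjusted p = 3.21e-06). No source used here states whether counting used strand, so reads in the stretch where the genes overlap, 29 bases in GRCh38, cannot be told apart. The antisense gene ARRDC3-AS1 was not analysed here. Its locus overlaps that of ARRDC3 over 2971 bases in GRCh38, and reads there cannot be told apart either.

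**Figure D4:**
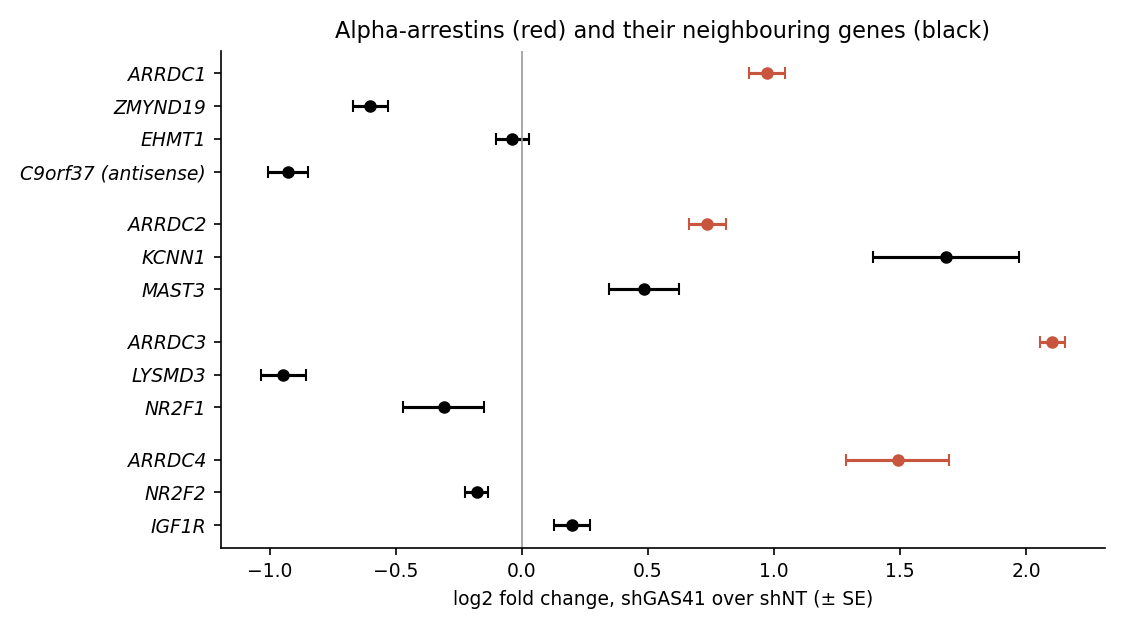
Log2 fold change of shGAS41 over shNT with its SE for the 4 alpha-arrestin genes (red), the nearest tested protein-coding gene on each side of each, and the antisense gene C9orf37 (black). The alpha-arrestins all lie right of 0, while LYSMD3 beside ARRDC3 (-0.94) and C9orf37 beside ARRDC1 (-0.93) lie left of it.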

How the data were processed

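RNA sequencing of 3 shNT and 3 shGAS41 libraries of H1299 cells was analysed from 1 deposited table of raw whole-number counts per gene. Per the submitters' processing notes the series used HTSeq, TopHat2 2.0.10, Bowtie2 2.1.0, CASAVA 1.8.2 and MACS 1.4.2 with build hg19. The annotation release, strand use and counting options are not stated in any source used here. The deposited table also holds the authors' log2 fold changes, p-values and adjusted p-values, per the file headers. Groups came from sample titles.

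Counts were fitted with edgeR 4.0.16 (limma 3.58.1, R 4.3.3): TMM scaling, filterByExpr (7 genes left out), robust quasi-likelihood test, Benjamini-Hochberg adjustment over all genes at 0.05. The SE is the absolute log2 fold change divided by the square root of F. The fit used group alone and did not pair libraries by replicate number, since the labels do not say what the numbers share. Deviations of same-numbered libraries from their group means correlated at 0.65, 0.25 and 0.32 across genes. Differently numbered libraries correlated between -0.54 and 0.44, and 2 of these pairs (shNT 3 with shGAS41 2, and shNT 2 with shGAS41 3) exceeded the same-numbered pairs 2 and 3. The replicate 1 libraries of both groups deviated alike (0.65), and their pairs with other numbers correlated between -0.54 and -0.42. What they shared is not given by the labels. A block for replicate number was run only as an alternative to the reported fit. Counts were also simulated for 13846 genes, of which 200 were changed, with libraries drawn independently. The share of changed genes recovered was 42% at 1.25-fold, 86% at 1.5-fold, 100% at 2-fold and 98% at 4-fold. The test called 19 of 13646 unchanged genes. In the data 68.1% of genes were called, so the simulated shares need not hold for the real comparison.

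Genes named were the 4 members, YEATS4, up to 2 rising and 2 falling genes of smallest p in each list, list members not called, the 5 genes nearest to ARRDC3, and those said to be named after their values were seen. The members and lists were chosen with earlier results of these data known. Levels per length, and genes nearest to TXNIP, were not analysed here. Promoter sequences are from RefSeq (GRCh38.p14), where 4 of 4 members matched by symbol. Totals were 58629147 to 72747010 counts per library, and counting error was not separated from the spread between libraries.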

Additional observations from a re-analysis of the deposited data

How the results depend on the processing

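The 12 alternatives were DESeq2 1.42.0, median-ratio size factors, library size alone, no filter, a filter of 1 CPM in 3 libraries, each library left out and the replicate block. In all 12 the 4 alpha-arrestin genes were called higher, as were 4192 to 5134 of all genes tested. Since the set was chosen on this comparison of the same libraries, nothing is read from those calls. The log2 fold changes were 2.08 to 2.13 for ARRDC3, 1.29 to 1.70 for ARRDC4, 0.91 to 1.02 for ARRDC1 and 0.69 to 0.80 for ARRDC2. The median of all genes lay between -0.026 and 0.0024. Genes called higher and lower numbered 4655 and 4770 in the fit reported and 5134 and 5260 with the replicate block. Of 755 values of single named genes under an alternative, 733 kept their direction and their side of the threshold. Signs turned for MLXIP with library size alone (-0.012). With 1 library left out, values also crossed 0 for MLXIP (-0.033 to 0.035, negative without shGAS41 replicate 2), FOXO1 (-0.053 to 0.096, negative without that library), EHMT1 (-0.082 to 0.043, positive without shNT replicate 1) and SLC2A1 (-0.030 to 0.139, negative without shNT replicate 1). None of these passed the test in either fit, and the cause was not tested. The replicate block added calls for MLXIPL, TXNRD1, FASN, SLC2A11, NR2F1, GLRX2, MAX and NLRP3, and changed no other call among the listed and neighbouring genes. The order of the members by level per length was not run, for want of transcript lengths. Counts were low for MLXIPL (14 to 108 per library) and KCNN1 (21 to 141), and how far depth limits their values was not tested.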

Other observations

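ARRDC3 was the one of the 4 alpha-arrestin genes whose log2 fold change in the authors' deposited table was smaller than in the fit to the deposited counts. The difference was -0.46 for ARRDC3, 0.32 for ARRDC4, 0.09 for ARRDC1 and 0.07 for ARRDC2. Over all 13846 genes tested the median difference between the authors' deposited table and the fit was 0.13, and the middle 50% of genes lay between -0.03 and 0.29. The model behind the authors' values is not stated in any source used here, and the cause of the difference was not tested.

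The MAX-binding repressors did not move as a group. MXD4, MXI1, MXD1 and MNT rose by 1.30, 0.74, 0.46 and 0.52 on the log2 scale, while MXD3 fell by 0.59 (edgeR adjusted p from 2.96e-08 to 0.00790). MYC rose by 0.34, and MAX had a log2 fold change of -0.11 (adjusted p = 0.0930, and 0.0408 with the replicate block). MXD1, MNT, MYC and MAX are named after their values were seen.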
